A study of Mus musculus with 32 samples.

Results

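The imprinting control regions of the mouse genome were followed in retinal DNA of mice flown in space and of mice kept on the ground. They were taken as 16 intervals of the GRCm38 genome, 2001 to 6001 bp long, chosen by position and named after the imprinted gene at or beside each. The sequence of these intervals holds 2223 CpGs, of which 884 had a read in some library, 605 had 10 or more reads in at least 1 library and 416 had 10 or more reads in all 16 libraries. These 416 are 18.7% of the CpGs of the intervals, and are among 1071432 CpGs of the autosomes and X read as deeply in all libraries. All mice were female C57 BL/6J, 21 weeks old. The spaceflight group had spent 37 days in orbit in animal enclosures, and the ground control group had lived in the same kind of habitat on Earth. Each group had 8 libraries of reduced representation bisulfite sequencing (RRBS), each from 1 retina of a different mouse, 3 left and 5 right eyes in each group. In RRBS, bisulfite converts unmethylated cytosines and an enzyme that cuts at CCGG selects CpG-rich fragments, so that the share of unconverted reads gives the methylation level. RNA of 9 spaceflight and 7 ground control retinas was sequenced as well. Eyes were not balanced there, with a larger share of left eyes in the spaceflight group.

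An imprinted gene is transcribed from the copy inherited from 1 parent. The mark that sets this is DNA methylation laid down on an imprinting control region in the egg or in the sperm, and kept on that copy through the divisions of the embryo. A control region is therefore expected near 50% when both copies are read together, in every tissue, and the reader protein ZFP57 binds the methylated hexamer TGCCGC in many of them with TRIM28 and the DNA methyltransferase DNMT1. Of the intervals, 14 are known for methylation of the maternal copy and 2, H19 and Dlk1-Meg3, for methylation of the paternal copy. The mice are inbred, so that the 2 parental copies cannot be told apart in the reads.

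Summed over CpG cytosines, a library had 61652709 to 80242659 reads in the spaceflight group and 59572205 to 105298542 in the ground control group. The median reads per CpG of the intervals were 52.2 ± 6.82 (SD, n = 8) and 51.5 ± 9.62 (SD, n = 8), and no CpG counted had fewer than 10 or more than 229 reads in a library. Mice M22 and M23 of the spaceflight group and M31 of the ground group stood apart at the 66212 other autosomal CpGs with a mean level of 30% to 70%, with 49.3%, 49.7% and 48.4% where the other mice lay between 51.1% and 53.0%.

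The reference sequence is shown for the stretches on which the results turn, read on the plus strand of GRCm38, with the CpGs that were counted in all libraries in capitals. The first pair are the paternally methylated intervals, and for these, Peg3 and Peg10 every counted CpG of the interval is shown.
Dlk1-Meg3, chr12:109526668-109526747: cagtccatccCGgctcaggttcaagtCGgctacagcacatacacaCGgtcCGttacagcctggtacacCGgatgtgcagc
H19, chr7:142581132-142581241: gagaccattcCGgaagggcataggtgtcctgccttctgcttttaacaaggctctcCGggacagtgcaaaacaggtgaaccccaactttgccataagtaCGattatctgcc
Peg3, chr7:6730252-6730338: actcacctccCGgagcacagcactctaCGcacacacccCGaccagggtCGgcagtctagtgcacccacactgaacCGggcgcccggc
Peg10, chr6:4747345-4747500: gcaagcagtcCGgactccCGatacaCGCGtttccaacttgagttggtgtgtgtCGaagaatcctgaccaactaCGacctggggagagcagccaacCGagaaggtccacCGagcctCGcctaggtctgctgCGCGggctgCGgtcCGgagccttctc

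The next 3 stretches hold the 5 CpGs of the intervals with the smallest p between groups.
Grb10, chr11:12026336-12026536: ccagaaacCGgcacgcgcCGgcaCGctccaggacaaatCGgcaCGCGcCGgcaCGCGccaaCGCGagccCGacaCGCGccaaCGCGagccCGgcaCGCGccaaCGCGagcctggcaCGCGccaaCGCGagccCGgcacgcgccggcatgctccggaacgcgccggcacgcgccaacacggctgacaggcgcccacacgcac
Igf2r, chr17:12741580-12741760: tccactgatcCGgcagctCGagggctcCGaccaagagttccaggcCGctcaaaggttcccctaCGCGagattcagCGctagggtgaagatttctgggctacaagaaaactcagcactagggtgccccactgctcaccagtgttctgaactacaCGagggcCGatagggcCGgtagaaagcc
Gnas-Nespas, chr2:174297342-174297441: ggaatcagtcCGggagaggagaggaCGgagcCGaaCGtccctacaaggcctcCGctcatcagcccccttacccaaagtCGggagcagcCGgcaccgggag

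The counted CpGs sat near starts of transcription: 242 of the 416 lay within 1000 bp of an annotated NCBI start inside an interval. By the same annotation 238 lay in exons, 173 in introns and 5 between genes. In Peg10 (paternally expressed, derived from a retrotransposon), all 13 CpGs lay in exonic sequence downstream of the start at chr6:4747306. In Peg3, a zinc finger gene, the 5 CpGs were exonic, and in Kcnq1ot1 the 10 CpGs lay in the long non-coding RNA itself, 1108 bp from its start at chr7:143296547 by the median CpG. The 24 CpGs of Igf2r, the gene of the receptor that clears IGF2, and the 80 of Grb10, an adaptor that dampens insulin signalling, were intronic. The 24 of Igf2r lie downstream of the start of Airn, the antisense RNA, at chr17:12741311. The 3 CpGs of H19 lay in no gene.

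Methylation was near 50% in 15 of the 16 intervals. Over all mice these 15 had means of 41.6% to 54.7%, and 95.4% of the interval CpGs lay between 30% and 70%, against 6.33% of the 1045359 other autosomal CpGs. None of the interval CpGs was below 10%, where 572664 of the others were. Of the 14 maternally methylated intervals, 12 had a mean under 50%. The lowest was Snrpn, the control region of the Prader-Willi and Angelman cluster, at 41.0% ± 3.06 in spaceflight and 42.2% ± 4.59 in ground mice (SD, n = 8 each).

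**Figure D1:**
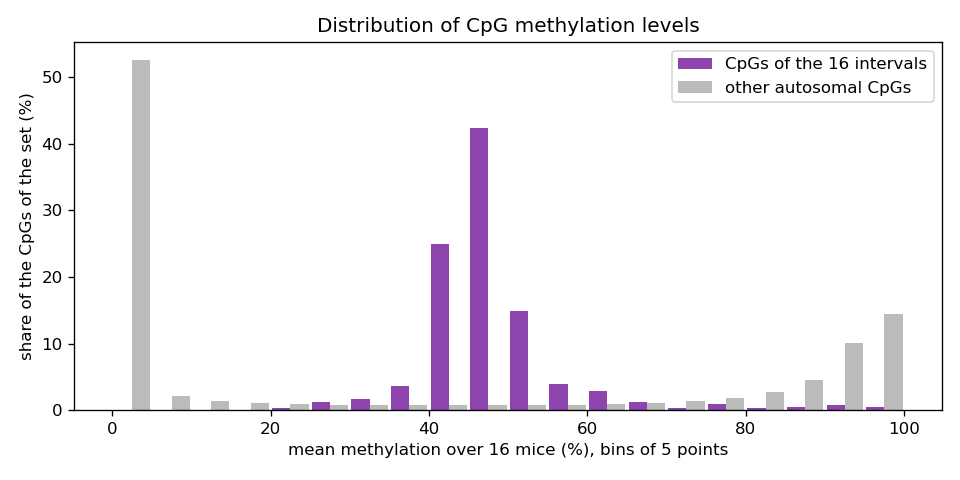
Share of CpGs (vertical axis, %) in bins of 5 points of mean methylation over 16 mice (horizontal axis, %), for the 416 interval CpGs and for 1045359 other autosomal CpGs. The interval CpGs gather between 40% and 60%, which holds 86.1% of them and 2.93% of the others.

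Dlk1-Meg3 went against its label. Its 5 counted CpGs, within 59 bp of an intron of the predicted gene Gm34081, averaged 94.0% ± 1.69 in flown and 96.0% ± 1.24 in ground mice (SD, n = 8 each), so that these CpGs did not show the level of a region methylated on 1 parental copy. Farther into the interval, the CpG at chr12:109528625 had 10 or more reads in 12 libraries and a mean of 56.3% there, with a range of 41.4% to 80.0%. Beyond it, 2 CpGs reached that depth in few libraries, at 81.8% in 2 of them and at 72.2% in 3. The interval keeps the name Dlk1-Meg3 below for its position only, and the average over the intervals is also given without it. H19, the other paternally methylated interval, was read at 55.4% ± 4.70 in spaceflight and 54.1% ± 5.84 in ground mice (SD, n = 8 each). The mean of the 14 maternally methylated intervals was below that of H19 alone by 8.82 ± 4.82 points (SD, n = 8) in spaceflight mice and by 5.92 ± 5.99 points (SD, n = 8) in ground mice, and 7 of 8 mice of each group showed that order. H19 rests on 3 CpGs.

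Levels varied inside some intervals more than between them. In Gnas-Nespas, a germline region of the Gnas cluster, 7 CpGs within 79 bp (shown above) averaged 31.02% ± 7.18 (SD, n = 16). Another 10 CpGs within 79 bp averaged 70.8% ± 3.21 (SD, n = 16), with single CpGs from 56.6% to 87.8%. The remaining stretches of that interval lay between 45.1% and 54.3%. In Nnat, which encodes the small membrane proteolipid neuronatin, 5 CpGs upstream of the start averaged 70.6% ± 6.13 (SD, n = 16) and 4 CpGs downstream 26.4% ± 8.87 (SD, n = 16). Mest, a paternally expressed hydrolase gene, had 2 CpGs at 70.5% ± 7.50 (SD, n = 16) and 5 at 40.3% ± 6.54 (SD, n = 16). Other intervals were even: the 13 CpGs of Peg10 lay between 45.5% and 47.4% and the 5 of Peg3 between 47.3% and 49.6%.

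**Figure D2:**
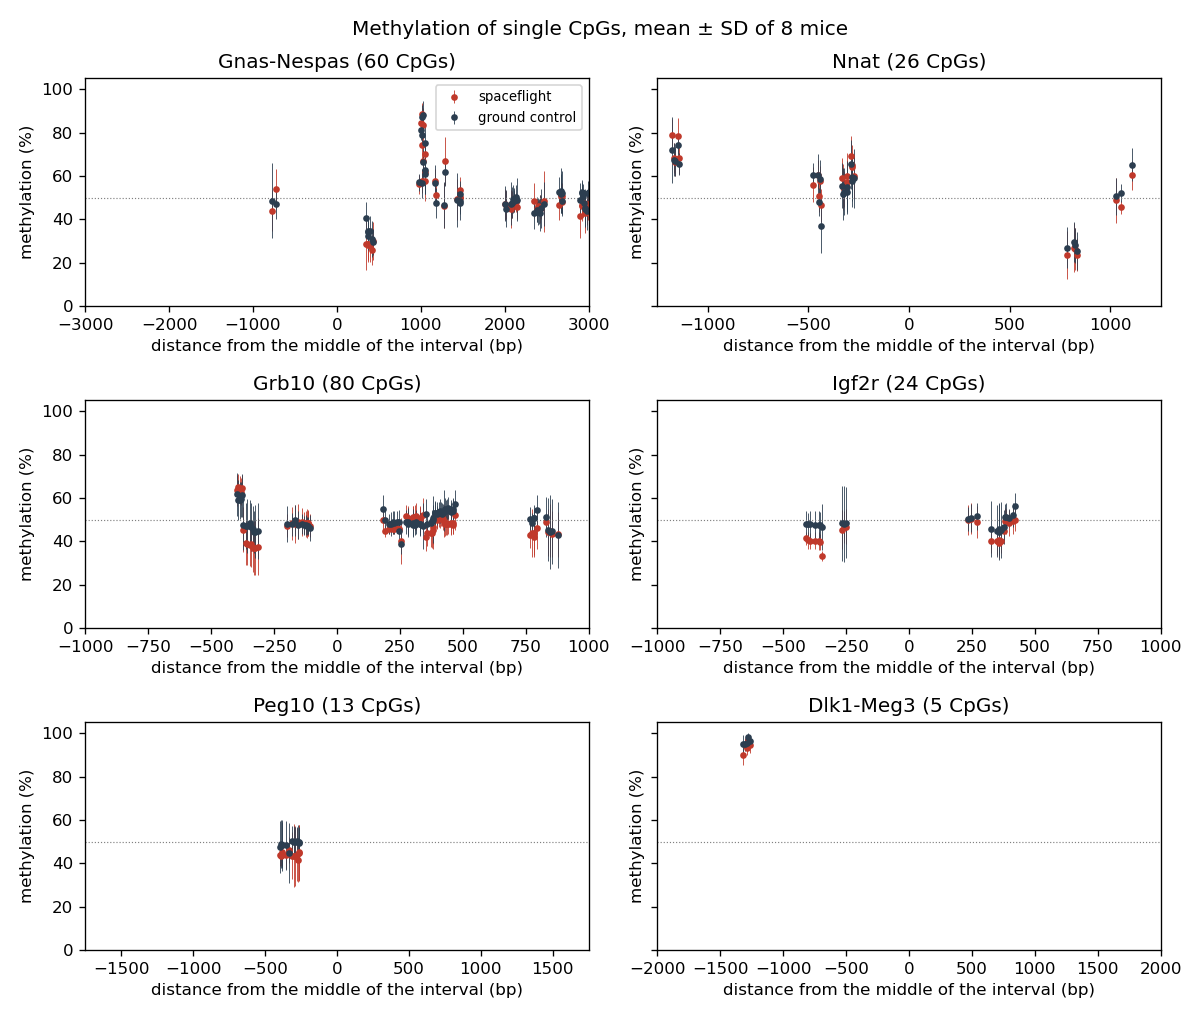
Methylation of single CpGs (vertical axis, %) against the distance from the middle of the interval (horizontal axis, bp) in 6 intervals, as mean ± SD of 8 spaceflight and 8 ground control mice. Most CpGs lie near 50%, Gnas-Nespas and Nnat hold stretches well above and below it, and the 5 CpGs of Dlk1-Meg3 lie near 95%.

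Whether spaceflight changed these marks was asked first for each interval. In spaceflight mice 12 of the 16 intervals were lower and 4 higher than in ground mice, with differences from -4.94 points at Peg10 to 1.30 points at H19. No interval separated the groups, and the share of tiles that did was not counted. By the exact two-sided permutation test over the 12870 divisions of 16 mice into 8 and 8, an unadjusted p of at most 0.05 was reached by 2 intervals. Of 90056 tiles of 3000 bp elsewhere on the autosomes and X, tested in the same way, 4.77% had such a p, and 4.5% of the 10939 autosomal tiles with a mean of 30% to 70%. Adjusted over all tiles and intervals by Benjamini-Hochberg, none passed, and the smallest adjusted p of an interval was 0.9996. Depth and number of mice left 95% intervals of between 1.60 and 7.20 points to either side of a difference.

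Grb10 was read at 44.6% at the lowest, 47.4% at the median and 50.8% at the highest in spaceflight mice, against 48.6%, 50.03% and 52.1% in ground mice. The groups overlapped, and 7 of 8 spaceflight mice lay below the ground mean. The difference was -2.43 points (95% interval -4.36 to -0.52, exact permutation p = 0.0169, n = 8 and 8). Without M22, M23 and M31 it was -2.45 points (exact permutation p = 0.0321).

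Dlk1-Meg3 lay at 91.5%, 94.3% and 96.4% (lowest, median and highest) in spaceflight and at 94.2%, 96.0% and 97.9% in ground mice. These ranges also overlapped, with 7 of 8 spaceflight mice below the ground mean. The difference was -2.02 points (95% interval -3.61 to -0.41, exact permutation p = 0.0177, n = 8 and 8). It was -1.37 points without M22, M23 and M31, where the exact permutation p was 0.0851, and 0.03 points when each library was read at its own CpGs, which brings in the CpGs farther into the interval.

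Igf2r had the largest difference after Peg10. Spaceflight mice lay at 39.5%, 44.1% and 48.3% (lowest, median and highest) and ground mice at 41.7%, 47.1% and 61.2%. All 8 spaceflight mice were below the ground mean of 48.5%, and the highest ground value was that of M31. The difference was -4.62 points (95% interval -10.1 to 0.64, exact permutation p = 0.0858, n = 8 and 8), and -2.78 points without M22, M23 and M31.

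Peg10 varied most between mice. Its range was 34.7% to 55.4% in spaceflight with a median of 43.8%, and 40.8% to 54.7% in ground mice with a median of 49.6%. The difference was -4.94 points (95% interval -12.1 to 2.28, exact permutation p = 0.155, n = 8 and 8). It went opposite ways in the eyes: 4.65 points in left eyes (3 against 3) and -10.7 points in right eyes (5 against 5). The test of that difference between eyes gave an unadjusted exact permutation p of 0.0115, and 1 of the 16 intervals and 4.88% of the tiles had a p of at most 0.05 in it. Adjusted over tiles and intervals, that of Peg10 was 0.999, which did not pass.

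Peg13, a non-coding RNA inside an intron of Trappc9, was at 48.1% ± 3.91 in spaceflight and 51.1% ± 2.35 in ground mice (SD, n = 8 each), a difference of -2.98 points with a 95% interval of -6.31 to 0.54. Plagl1, a zinc finger gene of growth control, was at 44.4% ± 1.93 and 46.3% ± 3.56, and Peg3 at 47.2% ± 3.05 and 49.6% ± 5.26 (SD, n = 8 each). Gnas-Nespas was at 49.3% ± 1.58 and 50.7% ± 2.02, Kcnq1ot1 at 44.3% ± 5.51 and 45.6% ± 5.32, and Mest at 48.4% ± 4.67 and 49.5% ± 5.40 (SD, n = 8 each). Zrsr1, a splicing factor gene that lies within the span of Commd1, was at 44.7% ± 2.25 and 45.2% ± 1.90 (SD, n = 8 each). The intervals with a higher mean in spaceflight, beside H19, were Gnas exon 1A at 47.2% ± 2.35 against 46.4% ± 2.83, Nnat at 55.0% ± 3.27 against 53.8% ± 3.76, and Impact at 46.7% ± 4.06 against 46.5% ± 4.19 (SD, n = 8 each). In all of these the 95% interval of the difference held 0. That of Gnas-Nespas, the narrowest among them, ran from -3.33 to 0.57 points, and that of Kcnq1ot1 from -7.15 to 4.64 points.

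**Figure D3:**
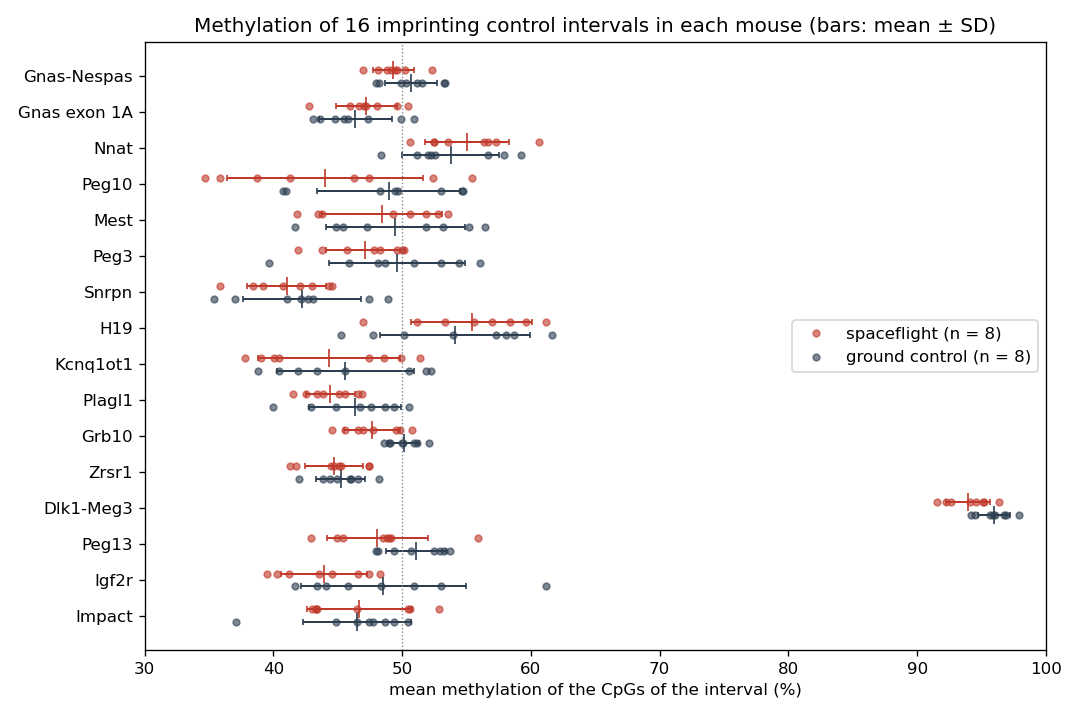
Mean methylation of each interval (horizontal axis, %) in each of 8 spaceflight and 8 ground control mice (points), with the mean ± SD of the group (bars). The groups overlap in all 16 intervals, 15 of which lie around 50%, while Dlk1-Meg3 lies near 95%.

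**Figure D4:**
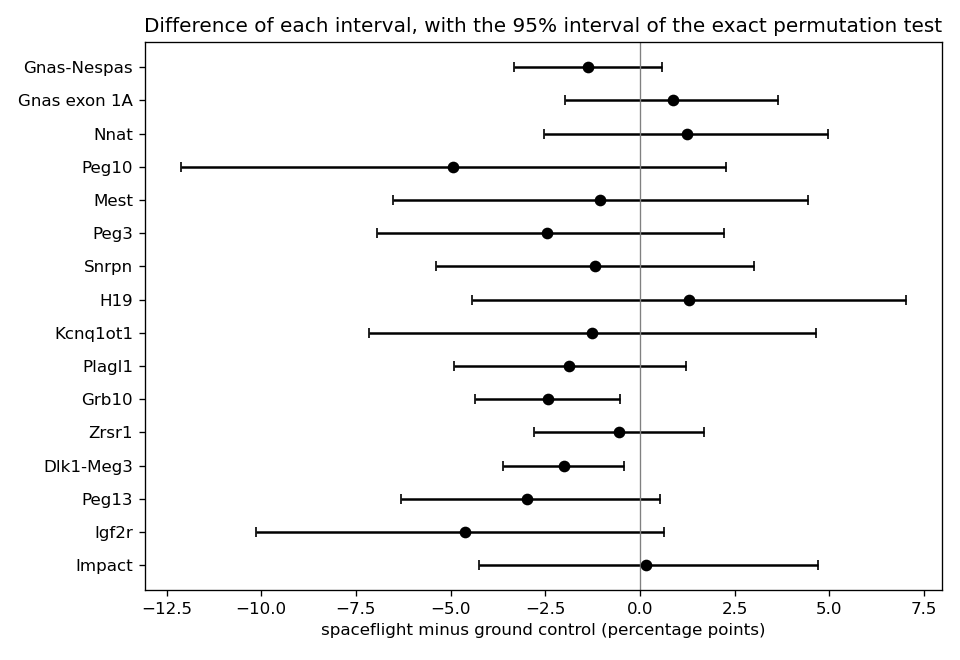
Difference of methylation, spaceflight minus ground control (horizontal axis, percentage points), for each interval, with the 95% interval of the exact permutation test. The intervals of Grb10 and Dlk1-Meg3 lie below 0, and the other 14 hold 0.

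Averaged over the 16 intervals, spaceflight mice lay at 47.9%, 50.1% and 51.7% (lowest, median and highest) and ground mice at 50.2%, 51.6% and 52.8%. The means were 50.1% ± 1.21 and 51.5% ± 0.78 (SD, n = 8 each), a difference of -1.45 points, and the groups overlapped. Without Dlk1-Meg3 the means of the other 15 intervals were 47.2% ± 1.31 and 48.6% ± 0.84 (SD, n = 8 each), a difference of -1.41 points. M24 was the lowest, with 13 of its 16 intervals below the mean of all mice. Leaving out any interval in turn gave -1.63 to -1.22 points, and leaving out any mouse gave -1.68 to -1.14. Left eyes differed by -1.37 points and right eyes by -1.50. The maternally methylated intervals differed by -1.61 points, from 48.2% ± 0.85 in ground to 46.6% ± 1.347 in spaceflight mice (SD, n = 8 each). Of the pair known for paternal methylation, H19 differed by 1.30 points and Dlk1-Meg3 by -2.02. No p is attached to these averages, because the intervals were gathered with earlier results of these data known.

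At other autosomal CpGs of 30% to 70%, spaceflight and ground mice were at 51.5% ± 1.32 and 51.6% ± 1.36 (SD, n = 8 each), a difference of -0.16 points with a 95% interval of -1.59 to 1.31. The average of the intervals minus these CpGs of the same mouse was -1.37 ± 1.88 points in spaceflight and -0.08 ± 1.76 points in ground mice (SD, n = 8 each). It was 1.29 points lower in spaceflight, with overlapping groups. As for the averages above, no p and no 95% interval is attached to that difference. Among the partly methylated tiles the middle difference was -0.13 points and 53.0% were lower in spaceflight.

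Of the single CpGs, none of the 416 passed an adjusted p of 0.05 with a difference of 10 points or more in logistic regression of the reads, as none did among all 1071432 CpGs (0%). At an unadjusted p of 0.05 there were 18 of the 416, or 4.33%, against 4.09% of all CpGs. All 18 were lower in spaceflight, as were 2.14% of all CpGs, or 52.3% of all CpGs with such a p and 58.0% of those among the other autosomal CpGs of 30% to 70%. With 10 points in addition there were 2, or 0.481%, against 0.188% of all CpGs. That number was 4 to 8 without M22, M24, M25, M32, M34, M36, M37 or M39 in turn, 0 with 20 reads as the minimum and 11 with the strands kept apart. The 18 were not scattered: 7 of them lay within 32 bp of Grb10, among 8 counted CpGs, and 6 within 58 bp of Igf2r, where the same reads cover several CpGs.

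In the Grb10 stretch shown above, a short CpG-rich unit recurs, and 7 of the 8 counted CpGs at chr11:12026431-12026462, those with an unadjusted p of at most 0.05, had spaceflight means of 47.7% to 48.4% and ground means of 53.6% to 55.3%. The CpG at chr11:12026441 was at 48.1% ± 4.51 in spaceflight and 55.3% ± 4.93 in ground mice (SD), and with an adjusted p of 0.865 by logistic regression over all CpGs it did not pass. Its neighbour at chr11:12026431 was at 48.1% ± 5.63 against 54.8% ± 5.41. The 6 CpGs of Igf2r at chr17:12741598-12741655 had spaceflight means of 33.2% to 40.5% and ground means of 46.6% to 47.9%. The lowest p of all members, 0.0191 unadjusted by that logistic regression, was at chr17:12741655, with 33.2% ± 2.35 against 46.6% ± 10.8 and as few as 10 reads in a library. The CpG at chr17:12741607 was at 40.01% ± 3.74 against 47.9% ± 6.22. In Gnas-Nespas, the CpG at chr2:174297352, first of the stretch near 31%, was at 28.7% ± 12.3 against 40.5% ± 7.41.

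The spread between mice was small at the intervals. It was measured as the squared deviation of a mouse from its group mean in units of the counting error, where 1 is counting error alone. At interval CpGs of 30% to 70% it was 1.05 ± 0.13 in spaceflight and 1.27 ± 0.20 in ground mice, and at other autosomal CpGs of that level 1.42 ± 0.20 and 1.64 ± 0.46 (SD, n = 8 each). The interval CpGs were lower in 8 of 8 spaceflight and 7 of 8 ground mice, and without M22, M23 and M31 in 6 of 6 and 6 of 7. M31 had the largest value at other CpGs, 2.77, and 1.43 at interval CpGs. For a whole interval, the SD between mice was 0.52 to 1.39 times the SD that counting reads gives when CpGs within 75 bp of 1 strand are taken to share their reads, with a median of 0.97. It was highest at Igf2r, with 4.84 against 3.47 points.

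The hexamer TGCCGC, searched on both strands, occurred 106 times in the 16 intervals, 2 to 12 times in each. Of all genome windows of the lengths of the intervals, 10.9% to 27.4% hold it at least once. The windows were not matched to the intervals for number of CpGs or for GC content, which was 48.2% to 59.4% in the intervals. Of the CpGs of the hexamer, 15 in 8 intervals were counted in all libraries. Within intervals, they were at 44.9% ± 1.26 against 46.1% ± 1.204 for the other CpGs in spaceflight mice, and at 46.8% ± 1.91 against 47.7% ± 1.14 in ground mice (SD, n = 8 each), with the hexamer higher in 2 of 8 mice of each group. Single means of the 15 ran from 39.01% to 51.3%, and 10 lay below the mean of the other CpGs of their interval. The sites at the 2 ends of that range and a pair from Grb10 and Igf2r are shown on the strand that reads the hexamer, which is in capitals.
Snrpn, chr7:60005184-60005213, plus strand: tgcgcacattttTGCCGCaatgcaggggtc
Peg13, chr15:72809695-72809724, minus strand: gacctgcgacacTGCCGCggagccgggagt
Grb10, chr11:12026213-12026242, plus strand: ccgacagggccgTGCCGCtcagagacgaat
Igf2r, chr17:12742346-12742375, minus strand: gggctcacgcagTGCCGCggaaccctcgga

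The Snrpn site is at the annotated start of Snrpn and Snurf, chr7:60005199, and was at 35.9% ± 6.23 in spaceflight and 42.1% ± 5.31 in ground mice. The Peg13 site was at 50.2% ± 6.66 and 52.5% ± 8.51, the Grb10 site at 45.9% ± 2.63 and 48.6% ± 5.28, and the Igf2r site at 39.5% ± 7.02 and 45.9% ± 11.99 (SD, n = 8 each). None of these 4 had an unadjusted p of 0.05 or under.

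Left and right eyes were compared within groups. Of the 16 intervals, 10 were higher in left eyes. The difference, left minus right, ran from -3.49 points at Impact to 4.08 points at Peg10. Gnas-Nespas, at 51.4% ± 2.003 in left (n = 6) and 49.2% ± 1.30 in right eyes (n = 10), was the 1 interval of 16 with an unadjusted p of at most 0.05 (exact permutation p = 0.0137), where 6.69% of the tiles had one. Adjusted over tiles and intervals its p was 0.655.

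The RNA of the genes at the intervals was compared with limma on log2(FPKM + 0.1), where FPKM is the fragments of a gene scaled by its length and by the total of the library. The retina markers were present in all libraries, rhodopsin among them at 4706 FPKM or more. Of 40 imprinted genes listed, 33 had a mean of 1 FPKM or more. None of the 33 passed a fold of 1.2 with a p of 0.05 and an adjusted p of 0.3, and none did among all 14336 genes tested (0%). Of the 33, 18 were higher and 15 lower in spaceflight, with a middle log2 difference of 0.06 against 0.01 for all genes, and 1 reached an unadjusted p of at most 0.05, as did 7.3% of all genes. The ranges of the groups overlapped for every gene listed, and the share of all genes with separate ranges was not counted. Library M21, whose source name and condition label disagree, was counted as spaceflight, and no imprinted gene was called without it either. The mouse numbers of some ground RNA libraries differ between the labels and the supplement of the study, and those of the labels are used, so that a number shared with a methylation library need not mark the same mouse.

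The gene with that p was Peg10. It was read at 2.33, 2.80 and 3.60 FPKM (lowest, median and highest) in spaceflight and at 2.85, 3.59 and 4.11 FPKM in ground retinas, a log2 difference of -0.24 ± 0.11 (SE; adjusted p = 0.672 by limma). Sgce, which shares its start region with Peg10 and encodes ε-sarcoglycan, was at 14.7 ± 2.67 and 16.1 ± 3.83 FPKM (SD, n = 9 and 7). Grb10 was at 19.8 ± 2.94 and 18.8 ± 1.81 FPKM, a log2 difference of 0.07 ± 0.10 (SE). Igf2r was at 5.95 ± 1.205 and 6.55 ± 1.348 FPKM, and its antisense RNA Airn at 7.74 ± 4.50 and 5.27 ± 2.004 FPKM, a log2 difference of 0.46 ± 0.32 (SE), the highest of the list.

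At the Dlk1-Meg3 cluster the maternally expressed RNAs Meg3, Rian and Mirg were at 48.7 ± 18.5, 14.1 ± 4.04 and 1.97 ± 0.737 FPKM in spaceflight and at 39.5 ± 12.1, 11.9 ± 3.13 and 1.49 ± 0.505 FPKM in ground retinas (SD, n = 9 and 7). The paternally expressed Dlk1 and Rtl1 were under 1 FPKM, as was H19 at 0.592 ± 0.753 and 0.566 ± 0.514 FPKM, while Igf2, the growth factor that shares its control region, was at 20.7 ± 2.80 and 21.2 ± 2.37 FPKM. Gnas, the stimulatory G protein subunit, had the highest level of the list, 853 ± 98.8 and 892 ± 234 FPKM. Nnat was at 13.3 ± 4.81 and 17.7 ± 8.04 FPKM, Peg3 at 32.1 ± 2.96 and 29.95 ± 3.32 FPKM, Snurf at 86.6 ± 11.7 and 90.7 ± 15.1 FPKM and Kcnq1ot1 at 3.38 ± 1.04 and 2.66 ± 0.441 FPKM. Cdkn1c, the cell cycle inhibitor of the Kcnq1ot1 cluster, was at 11.02 ± 7.16 and 15.6 ± 11.9 FPKM, a log2 difference of -0.36 ± 0.36 (SE), the lowest of the list.

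Of 12 genes that read or keep imprints, 9 were at 1 FPKM or more and none was called. Zfp445, which encodes a zinc finger protein that keeps imprints with ZFP57, was at 23.2, 26.5 and 32.6 FPKM (lowest, median and highest) in spaceflight and at 18.05, 22.7 and 24.3 FPKM in ground retinas. The groups overlapped between 23.2 and 24.3 FPKM. The log2 difference was 0.31 ± 0.08 (SE; adjusted p = 0.555 by limma), with an unadjusted p below 0.05. Zfp57 was at 1.37 ± 0.428 and 1.29 ± 0.351 FPKM, Trim28, the corepressor, at 20.1 ± 2.31 and 20.3 ± 1.16 FPKM, and Dnmt1 at 18.1 ± 1.41 and 19.2 ± 2.41 FPKM (SD, n = 9 and 7). Tet2, a dioxygenase that oxidises methylcytosine, was at 22.01 ± 2.51 and 19.5 ± 2.32 FPKM.

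Markers of other tissues were present in the RNA libraries, some of them in every library. Of 13 listed, 12 were in the table, and their summed level was 218 to 16141 FPKM in spaceflight and 265 to 25088 FPKM in ground libraries. The lens crystallins Cryaa and Cryba1 gave 15008 FPKM in M22, 23889 in M31 and 16664 in M37, against 850 FPKM or less in the other libraries. The keratins Krt5, Krt10 and Krt1 reached 580, 356 and 274 FPKM at the highest in spaceflight libraries. Their medians were 10.5, 10.3 and 1.36 FPKM in spaceflight and 4.59, 9.75 and 1.48 FPKM in ground libraries. Krt12 went the other way, reaching 27.6 FPKM in spaceflight and 39.5 FPKM in ground libraries. The blood marker Hba-a1 was at 1.42 FPKM or less in all libraries. The part of these markers in the RNA and methylation values was not tested. In bulk retina, fewer cells of a type and less RNA per cell cannot be told apart.

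**Figure D5:**
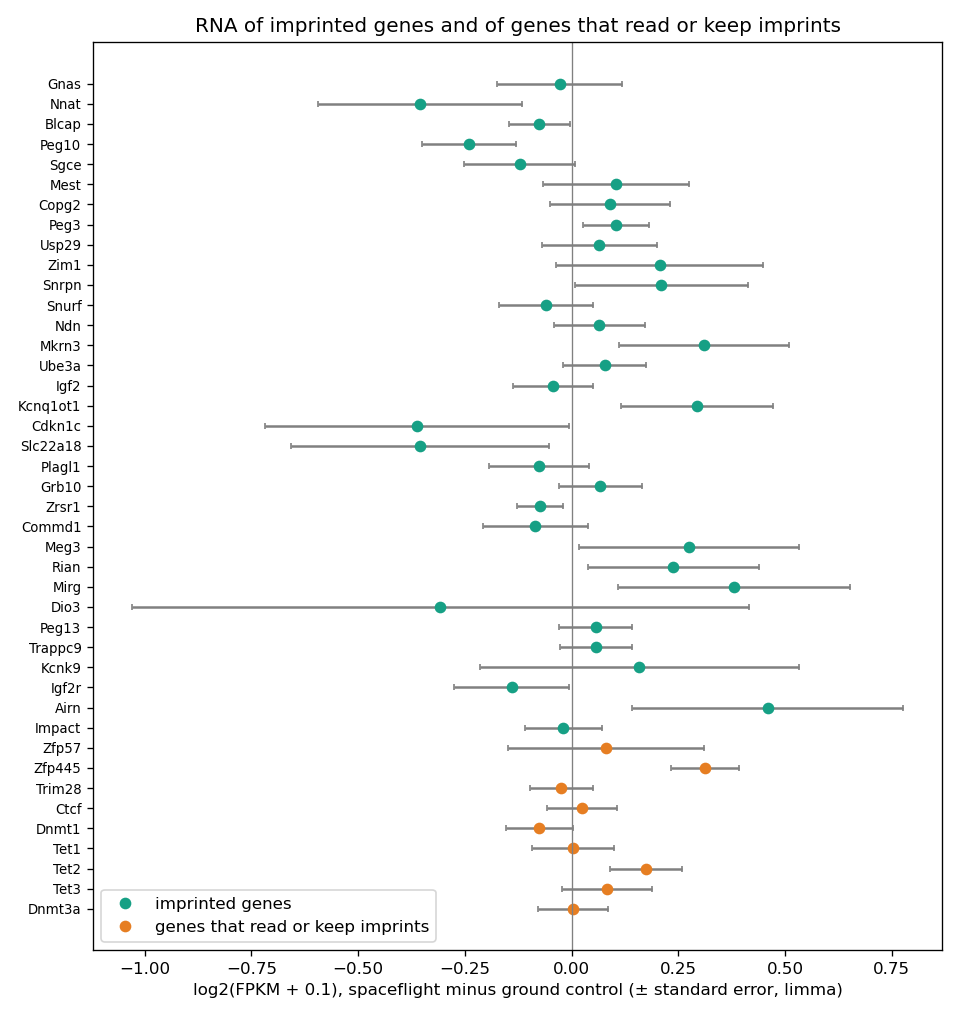
Difference of RNA level, spaceflight minus ground control, on the scale of log2(FPKM + 0.1) with its standard error from limma (horizontal axis), for 33 imprinted genes and 9 genes that read or keep imprints. Zfp445 lies at 0.31, Peg10 at -0.24 and Airn, the highest, at 0.46.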

How the data were processed

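The authors trimmed RRBS reads with Trim Galore (version 0.4.5, per the labels), aligned them to GRCm38 with Bismark and deposited a methylKit call table for each library, with read counts per CpG cytosine and the percent methylated and unmethylated. For RNA they used Trimmomatic, TopHat2 and the Cufflinks tools, and the deposited table gives FPKM; 2 of its columns were not used, and its 1 entry with no gene name, up to 0.388% of the FPKM of a library, was left out. Copg2 has more than 1 entry, and the one with that identifier was used.

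Here the strands of a CpG were added, CpGs with 10 or more reads in all 16 libraries on the autosomes and X were kept, and the level of an interval was the mean over its CpGs. Groups came from the labels. Intervals were compared by exact permutation over mice, with 95% intervals by inverting that test. Single CpGs were compared by logistic regression with an overdispersion term not below 1 and an F-test; p-values were adjusted over all CpGs (Benjamini-Hochberg) and called at an adjusted p of 0.05 and 10 points. RNA was compared with limma (version 3.58.1, with trend) for genes whose mean reached 1 FPKM, with a pseudocount of 0.1, and called at a fold of 1.2, p of 0.05 and adjusted p of 0.3; the authors' Cuffdiff needs reads. The reads behind an FPKM are not known. Each fit was tested on simulated data. Positions and sequences are from the NCBI annotation and genome of GRCm38.p6, the build of the files.

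The members, gene lists and tests were chosen with earlier results of these data known. Planned p-values for averages over the intervals are therefore not given. The rule for names was all 16 intervals, the 5 CpGs with the smallest p, and listed genes at 1 FPKM or more. Intervals on reads cover counting error only. Numpy 2.4.6, scipy 1.17.1 and R 4.3.3 were used.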

Additional observations from a re-analysis of the deposited data

Results flagged for a closer look

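A value far from the others of its group was looked for by the gap to its nearest neighbour over the range of the group, at a level that chance passes in about 1 of 20 groups. In methylation, 34 groups of 8 mice were looked at and 1 value stood apart: Impact was at 37.1% in ground mouse M39, where the other ground mice lay between 44.9% and 50.4%.

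In RNA, 84 groups were looked at and 16 values stood apart, which fell in 5 libraries, here numbered by the labels, from which the study's supplement differs for some ground libraries. In spaceflight library M22, Nnat was at 25.4 FPKM, Sgce at 20.8, Cdkn1c at 29.8 and Plagl1 at 14.1 FPKM, all above the rest, and Dnmt3a was below it at 12.8 FPKM. In ground library M31, Sgce was at 24.1 FPKM, Slc22a18 at 3.45, Plagl1 at 13.1, Dio3 at 14.1 and Igf2r at 9.27 FPKM, all above the rest. In ground library M32, Copg2 at 17.7 FPKM, Ube3a at 15.3, Zfp57 at 0.546 and Tet1 at 2.74 FPKM were below the rest. Mest was at 40.2 FPKM in spaceflight library M23 and Trappc9 at 51.1 FPKM in spaceflight library M26. M22 and M31 also held 15008 and 23889 FPKM of lens crystallins, M37 held 16664 FPKM of them with no value apart, and M32 held 151 FPKM; the part of these in the values was not tested.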

How the results depend on the processing

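No paired analysis was possible because the spaceflight and ground control mice share no numbers. The difference of the average over 16 intervals was lower in spaceflight under all 28 alternatives, at -1.76 to -1.14 points. It was -1.14 at 20 reads, -1.50 in right eyes, -1.37 in left eyes and -1.29 after subtracting other partly methylated CpGs of the same mouse. That alternative was chosen after seeing the data, as were leaving out Dlk1-Meg3 or M22, M23 and M31, weighing all CpGs equally, H19 alone and adjustment over tiles. The cause of these shifts was not tested. By the planned rule, an adjusted p of 0.05 over the 16 intervals alone, 0 intervals were called. Without 1 mouse the number was 0 to 2, the 2 being Grb10 and Dlk1-Meg3 without M21. These calls were not adjusted over the tiles. Of 384 values for single intervals, 366 kept their direction. Reversed were, at 20 reads, Zrsr1 (0.31), at 5 reads, Gnas exon 1A (-0.094), Nnat (-0.051) and Impact (-1.36), at the own CpGs of each library, Gnas exon 1A (-1.08), Zrsr1 (0.39), Dlk1-Meg3 (0.027) and Impact (-2.20), in left eyes, Peg10 (4.65), Snrpn (1.14) and Kcnq1ot1 (0.39), and Impact in right eyes (-1.18), by logistic regression of summed reads (-0.36) and without 1 mouse (-1.19 to 0.72). Interval CpGs with an unadjusted p of 0.05 and 10 points numbered 2, and 0 at 20 reads, 11 with the strands apart and 2 to 8 without 1 mouse. Maternally minus paternally methylated intervals kept their direction throughout. Without 1 mouse the difference was -28.7 to -27.7 points in spaceflight and -27.6 to -26.1 in ground mice. Those sizes include Dlk1-Meg3, whose counted CpGs lay near 95%. With H19 alone the difference was -8.82 and -5.92 points. The lower spread at interval CpGs came to -0.057 in ground mice with no level range, against -0.371 from 30% to 70%. The level in TGCCGC minus the other CpGs was -1.58 points in spaceflight mice at 20 reads, -1.37 at 5 reads and -2.87 pooled over CpGs, and -2.30 in ground mice when pooled. RNA calls were 0 under all 4 alternatives, and Igf2 (0.010) and Impact (0.012) reversed without M21. Peg3, Peg10, H19, Kcnq1ot1, Plagl1 and Dlk1-Meg3 each rest on 1 stretch of CpGs, and Mest rests on 7 CpGs. Depth and 8 mice a group limit differences to those of the 95% intervals.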
